A study of Mus musculus with 6 samples.

Results

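The genes described here encode 8 inhibitors of proteases that neutrophils are known to make: the stefins Stfa1, Stfa2, Stfa3, Stfa2l1 and Cstb, the secreted cystatin Cst3, the serpin Serpinb1a and the secretory leukocyte protease inhibitor Slpi. The list was set by gene name, with earlier results of these data known. A gene was measured where the array had a probe set annotated to that gene alone. Of the 8 genes, 6 were measured, by 8 of the 34945 probe sets with a single gene symbol, and all 6 passed the filter on low values that left 12739 genes of 18193. Stfa1 is annotated only on a probe set that it shares with another gene, and Stfa2 has no probe set in the annotation used, so both are without a value here.

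Cells came from the femur and tibia marrow of HdcGFP reporter mice on a C57BL/6 background, in which green fluorescent protein reports Hdc, the gene of the histamine-making enzyme histidine decarboxylase. The tested cells were GFP-positive or GFP-high, CD11b-positive and high for Gr1 (Gr1hi, 3 arrays), and they were compared with cells of the same reporter and CD11b gate that were low for Gr1 (Gr1lo, 3 arrays). The labels of Gr1lo replicate 3 disagree: its title and source give the GFP-positive or GFP-high gate, whereas its description writes "HdcGFP-", which can be read as GFP-negative, and it was grouped here by its title. Both groups thus share the reporter allele and strain, no treatment is given in the labels, and an age is not given in the sources used here. Gr1 is the antigen seen by an antibody to Ly6G and Ly6C, CD11b is an integrin of myeloid cells, and GFP in these mice marks cells with Hdc promoter activity, whichever lineage they belong to. The comparison asks which transcripts differ between Gr1hi and Gr1lo cells, and each difference is Gr1hi minus Gr1lo of log2 probe set values. Nothing in the labels tells if each replicate was a mouse of its own; the p-values therefore reflect the spread among these arrays, which may be technical.

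Neutrophil granules carry serine proteases such as elastase, cathepsin G and proteinase 3, and the cells also hold lysosomal cysteine proteases of the papain family. Inhibitors of both classes restrain these enzymes. Stefins are small cytosolic proteins that block papain-like cathepsins, and cystatin C, the product of Cst3, does so outside the cell and in secretory compartments. Serpinb1a encodes a cytosolic serpin that inactivates neutrophil elastase, cathepsin G and proteinase 3, while Slpi encodes a secreted inhibitor of elastase and cathepsin G that has whey acidic protein (WAP) domains.

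The 6 arrays showed neutrophil markers in both groups. Of 10 neutrophil markers, 0 had a mean at or below the highest value of the absent-transcript controls (2.77) in either group, and S100a8 lay between 14.82 and 14.96 on all arrays. All 10 were tested, of which 4 were higher in Gr1hi (Cxcr2, Csf3r, Mmp8 and Cd177), 0 were lower and 6 were not called. The samples are labelled female, yet a probe set of Eif2s3y, a Y-linked gene, read between 9.02 and 10.66 on every array. Another probe set of Eif2s3y read 2.26 to 2.70, below the highest absent-transcript control. The replicate 3 arrays stood apart in Xist, whose transcript coats an inactive X chromosome and which read 10.14 in Gr1hi replicate 3 and 10.95 in Gr1lo replicate 3, and at most 2.43 on the other arrays. They were also the highest in Mcpt8, a basophil protease gene, at 7.74 in Gr1hi replicate 3 and 7.44 in Gr1lo replicate 3, against at most 5.47 elsewhere. Of 7 basophil and mast cell markers with a probe set, Cpa3 and Fcer1a were likewise highest on both replicate 3 arrays. Ms4a2, Gata2, Kit and Cd200r3 were not, and Kit was lowest among the Gr1lo arrays in replicate 3 (8.12). Ccr2, a chemokine receptor gene of inflammatory monocytes, read 7.29 and 6.07 on the replicate 3 arrays of Gr1hi and Gr1lo, and at most 4.91 on the others. Values without both replicate 3 arrays are therefore given for each measured gene below. Between the groups, 56.4% of the tested genes passed the test in either direction, 24.6% higher and 31.8% lower in Gr1hi, and the groups did not overlap in 65.5%. A call for a single gene is thus common in this comparison, and the sizes of the differences carry more than their number.

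Of the 6 measured inhibitor genes, 5 rose in Gr1hi (Stfa3, Stfa2l1, Slpi, Cstb and Cst3) and 1 fell (Serpinb1a), and in all 6 the Gr1hi and Gr1lo arrays did not overlap. Over all tested genes, the Gr1hi arrays lay wholly above the Gr1lo arrays in 30.7% and wholly below them in 34.7%. All 8 probe sets of the 6 genes were called in the direction of their gene, where 56.2% of the 22715 probe sets fitted singly were called, 26.2% higher and 30.0% lower. The members'  median difference was 1.57, against 0.03 over all tested genes. Because the list was chosen with earlier results of these data known, this contrast describes the members and does not test them. The members' changes were very unequal, from a 26.7-fold rise of Stfa3 to a 1.29-fold rise of Cst3. The rises of Stfa3, Stfa2l1, Slpi and Cstb were called on each of the 3 scales tried. The call of Cst3 and the direction of Serpinb1a on its probe set with the higher mean rest on the scale, as given with each gene. The second probe set of Serpinb1a was lower in Gr1hi on each scale, by an amount that also rests on the scale.

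**Figure D1:**
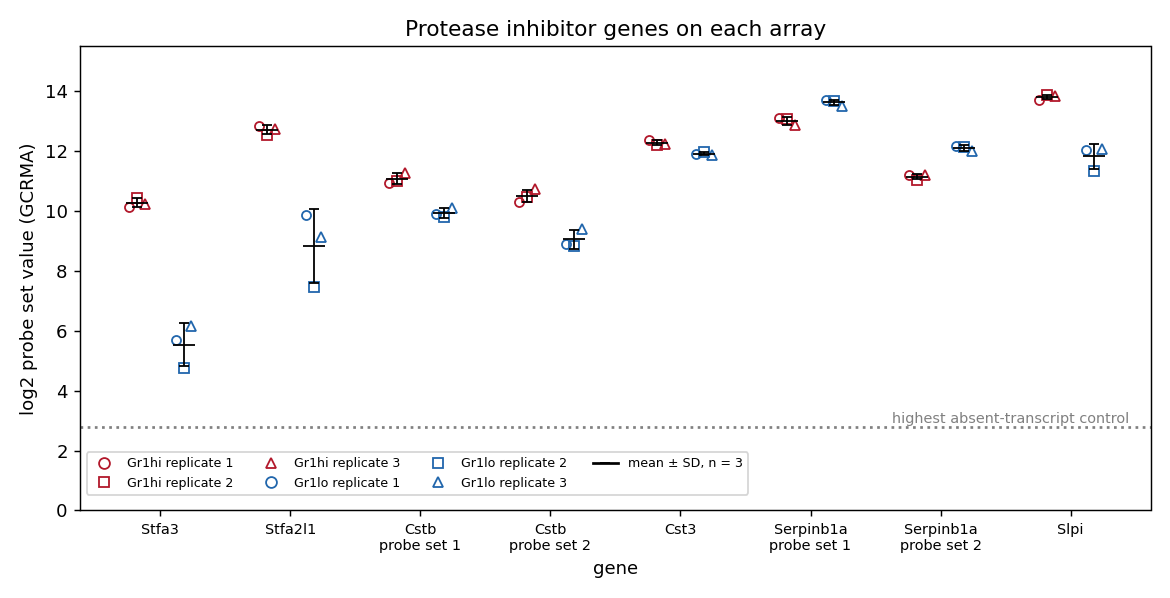
Log2 probe set values (y axis) of the 6 measured inhibitor genes, with both probe sets of Cstb and Serpinb1a. Red symbols are the 3 Gr1hi arrays and blue symbols the 3 Gr1lo arrays, with 1 symbol shape per replicate number; black bars are means ± SD and the dotted line is the highest absent-transcript control (2.77). The Gr1hi arrays lie above the Gr1lo arrays for Stfa3, Stfa2l1, Cstb, Cst3 and Slpi and below them for both probe sets of Serpinb1a.

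Stfa3 encodes a stefin A protein, a mouse relative of human cystatin A, and had the largest change of the measured inhibitors. Its probe set read 10.13, 10.43 and 10.25 in Gr1hi replicates 1, 2 and 3, against 5.68, 4.75 and 6.16 in Gr1lo replicates 1, 2 and 3. The Gr1hi arrays were close together and high, and the Gr1lo arrays were spread over more than a log2 unit, with replicate 2 lowest. The means were 10.27 ± 0.15 in Gr1hi and 5.53 ± 0.72 in Gr1lo (SD, n = 3 each), a difference of 4.74 (SE 0.31, limma adjusted p = 1.76e-06). Among the 12739 tested genes, 73 had a larger positive difference. Without both replicate 3 arrays Stfa3 differed by 5.06.

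Stfa2l1 encodes another protein of the stefin A family. Its probe set read 12.85, 12.55 and 12.73 in Gr1hi replicates 1, 2 and 3, against 9.87, 7.46 and 9.13 in Gr1lo replicates 1, 2 and 3. Gr1lo replicate 2 was again the lowest array, 1.36 below the mean of its group. The means were 12.71 ± 0.15 in Gr1hi and 8.82 ± 1.24 in Gr1lo (SD, n = 3 each), and the difference was 3.89 (SE 0.48, limma adjusted p = 9.44e-05), a 14.8-fold rise. Its size depended on single Gr1lo arrays: it was 9.25-fold without Gr1lo replicate 2 and 21.4-fold without Gr1lo replicate 1. Without both replicate 3 arrays it differed by 4.04.

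Stfa3 and Stfa2l1 lie in one cluster on mouse chromosome 16. In the RefSeq gene table of assembly GRCm38.p6, 12 protein-coding genes stand between Ccdc58 and Casr, and they include all 4 stefin A genes of the list. Only 3 of these 12 have a probe set to themselves, 4 are annotated only on shared probe sets and 5 have none listed, so most of the cluster has no value of its own here. The other gene with a probe set to itself is Csta1, at one end of the cluster. Csta1 read 2.48, 2.24 and 2.19 in Gr1hi, against 1.80, 2.00 and 1.97 in Gr1lo, all below the highest absent-transcript control, and it was set aside by the filter. At that level the probe set does not show whether Csta1 differed. The probe sequences were not used here, so whether transcripts of close relatives contribute to the signals of Stfa3 and Stfa2l1 was not tested.

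The promoters of both genes are shown because the genes rose together and their upstream sequences are alike. Each is the 250 bases before the RefSeq transcript start in GRCm38.p6, 5′ to 3′ on the strand of the gene. The Stfa3 promoter is chr16:36455393-36455642 on the minus strand, and the Stfa2l1 promoter is chr16:36156561-36156810 on the plus strand. Capitals mark the longest stretch that is identical in the promoters of Stfa1, Stfa2, Stfa3 and Stfa2l1.
Stfa3: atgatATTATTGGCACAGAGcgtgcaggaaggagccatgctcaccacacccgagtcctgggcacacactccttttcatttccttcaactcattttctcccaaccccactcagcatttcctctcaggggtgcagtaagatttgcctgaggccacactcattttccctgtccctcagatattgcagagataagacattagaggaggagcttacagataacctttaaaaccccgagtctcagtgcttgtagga
Stfa2l1: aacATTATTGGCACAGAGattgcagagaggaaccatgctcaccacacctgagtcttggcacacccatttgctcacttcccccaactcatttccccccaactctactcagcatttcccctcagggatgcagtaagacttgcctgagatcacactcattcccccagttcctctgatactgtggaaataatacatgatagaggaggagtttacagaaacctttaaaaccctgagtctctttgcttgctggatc

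The promoters of Stfa3 and Stfa2l1 were identical in 80.3% of 254 aligned positions, and those of Stfa2l1 and Stfa2 in 89.4%. Between either of them and the promoters of Cst3 or Slpi, identity was 38.3% to 43.9%. The 15 capital bases, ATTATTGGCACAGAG, occurred on either strand in 5 of 27025 RefSeq promoters of the same length, taken once per gene symbol. These were the 4 stefin A genes of the list and Cstdc5, their neighbour in the cluster. The stretch was chosen for being shared by those 4 promoters, so its presence there was given in advance. Whether it has a part in expression was not tested. Myeloid factors bind some known sequences, and 2 of these were searched on both strands. The PU.1-type sequence GAGGAA occurred once in Stfa3, with its first base 135 bases before the start, and at 224 and 86 bases before the start in Stfa2l1. It was present in 23.1% of the 27025 promoters. The C/EBP-type sequence TTGCNNAA, present in 9.55% of promoters, had 0 matches in either gene. Such matches describe letters in the window and are not evidence of binding.

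Slpi had the next largest difference after the stefin A genes. Its probe set read 13.72, 13.87 and 13.83 in Gr1hi replicates 1, 2 and 3, against 12.05, 11.33 and 12.09 in Gr1lo replicates 1, 2 and 3. The Gr1hi arrays agreed within 0.2 and Gr1lo replicate 2 was the lowest array. The means were 13.81 ± 0.08 in Gr1hi and 11.82 ± 0.43 in Gr1lo (SD, n = 3 each), a difference of 1.99 (SE 0.18, limma adjusted p = 1.06e-05) and a 3.97-fold rise. Of the tested genes, 538 had a larger positive difference. Without both replicate 3 arrays Slpi differed by 2.11. The values in Gr1hi lay near the top of the arrays, whose highest value was 15.01, and whether the difference is compressed there was not tested.

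The Slpi promoter is shown beside those of the stefins as a gene that rose with them from another chromosome. It is chr2:164356508-164356757 on the minus strand in GRCm38.p6, and capitals mark its single match to TTGCNNAA, read on the opposite strand and beginning 241 bases before the start. It held 0 matches to GAGGAA.
Slpi: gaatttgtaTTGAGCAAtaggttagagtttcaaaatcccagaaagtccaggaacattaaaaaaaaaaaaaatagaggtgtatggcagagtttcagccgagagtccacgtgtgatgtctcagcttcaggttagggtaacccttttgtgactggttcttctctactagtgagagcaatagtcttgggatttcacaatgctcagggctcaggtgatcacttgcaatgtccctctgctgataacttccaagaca

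Cstb, on chromosome 10, encodes stefin B, a broadly expressed cytosolic inhibitor of cathepsins. Its probe set with the higher mean read 10.93, 11.01 and 11.28 in Gr1hi replicates 1, 2 and 3, against 9.90, 9.80 and 10.10 in Gr1lo replicates 1, 2 and 3. Spread was small in both groups. The means were 11.07 ± 0.18 in Gr1hi and 9.93 ± 0.15 in Gr1lo (SD, n = 3 each), a difference of 1.14 (SE 0.12, limma adjusted p = 3.87e-05). The second probe set read 10.31, 10.46 and 10.73 in Gr1hi, against 8.91, 8.83 and 9.40 in Gr1lo, and differed by 1.45 (limma adjusted p = 7.37e-05, each probe set fitted on its own). Both probe sets thus rose. Without both replicate 3 arrays the first differed by 1.12.

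Cst3, on chromosome 2, encodes cystatin C, which is abundant in macrophages and dendritic cells as well as in neutrophil precursors. Its probe set read 12.37, 12.20 and 12.25 in Gr1hi replicates 1, 2 and 3, against 11.89, 11.97 and 11.87 in Gr1lo replicates 1, 2 and 3. The groups were separated by less than a log2 unit but each was tight. The means were 12.27 ± 0.08 in Gr1hi and 11.91 ± 0.06 in Gr1lo (SD, n = 3 each), a difference of 0.36 (SE 0.08, limma adjusted p = 0.00249), and 0.35 without both replicate 3 arrays. With arrays centred on the hybridization controls, Cst3 differed by 0.10 and did not pass the test (limma adjusted p = 0.554). Subtracting the kept-gene median from each array gave 1.04. Of 9 monocyte and macrophage markers with a probe set, 8 were tested, of which 3 rose (Csf1r, Cd68 and Adgre1), 1 fell (F13a1) and 4 were not called. Their summed log2 level was 55.3 to 63.9 on the Gr1hi arrays and 43.6 to 51.3 on the Gr1lo arrays, and 0 of the 9 in Gr1hi and 1 in Gr1lo had a mean at the absent-transcript level. Replicate 3 gave the highest sum in each group. Among them Cd68, a lysosomal glycoprotein gene, averaged 9.34 in Gr1hi and 4.93 in Gr1lo, while Cx3cr1, a chemokine receptor gene of monocytes, averaged 3.45 in Gr1hi and 3.28 in Gr1lo (limma adjusted p = 0.325). Of 7 dendritic cell markers with a probe set, 4 were tested, of which 2 rose (H2-Aa and H2-Ab1) and 2 were not called (Siglech and Bst2). The summed log2 level of the 7 was 22.9 to 25.6 in Gr1hi and 20.3 to 21.6 in Gr1lo. Of the 7, 3 in Gr1hi and 4 in Gr1lo had a mean at the absent-transcript level, among them Flt3, Xcr1 and Zbtb46 in both groups. The part of such cells in the level of Cst3 was not tested, and in sorted bulk samples fewer cells of a type and less RNA per cell cannot be told apart.

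Serpinb1a, on chromosome 13, was the only measured member that fell. Its probe set with the higher mean read 13.11, 13.08 and 12.87 in Gr1hi replicates 1, 2 and 3, against 13.70, 13.66 and 13.52 in Gr1lo replicates 1, 2 and 3. The transcript stayed high in both groups. The means were 13.02 ± 0.13 in Gr1hi and 13.63 ± 0.10 in Gr1lo (SD, n = 3 each), a difference of -0.61 (SE 0.08, limma adjusted p = 1.69e-04), and -0.58 without both replicate 3 arrays. The second probe set read 11.20, 11.05 and 11.19 in Gr1hi, against 12.16, 12.15 and 11.99 in Gr1lo, and differed by -0.95 (limma adjusted p = 1.13e-05, each probe set fitted on its own). When the kept-gene median was subtracted from each array, which shifts all differences up by 0.68, the first probe set differed by 0.070 (limma adjusted p = 0.514). The second differed by -0.28 there and passed the test (limma adjusted p = 0.0132).

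The measured members also differed in how much the arrays of a group varied. Gr1lo replicate 2 was the lowest Gr1lo array for 4 of the 6, namely Stfa3, Stfa2l1, Slpi and Cstb. It lay 0.78 below its group mean for Stfa3, 1.36 for Stfa2l1 and 0.49 for Slpi. On the same array, 17 tested genes of mature neutrophils, a list chosen with results of these data known, deviated by a median of -0.44, against 0.35 in Gr1lo replicate 1 and 0.09 in Gr1lo replicate 3. Stfa2l1 followed the same order, highest in Gr1lo replicate 1, whereas Stfa3 and Slpi were highest in Gr1lo replicate 3. Cst3 and Serpinb1a deviated by no more than 0.11 on any Gr1lo array. The Gr1hi arrays deviated by at most 0.20 for all 6 genes.

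**Figure D2:**
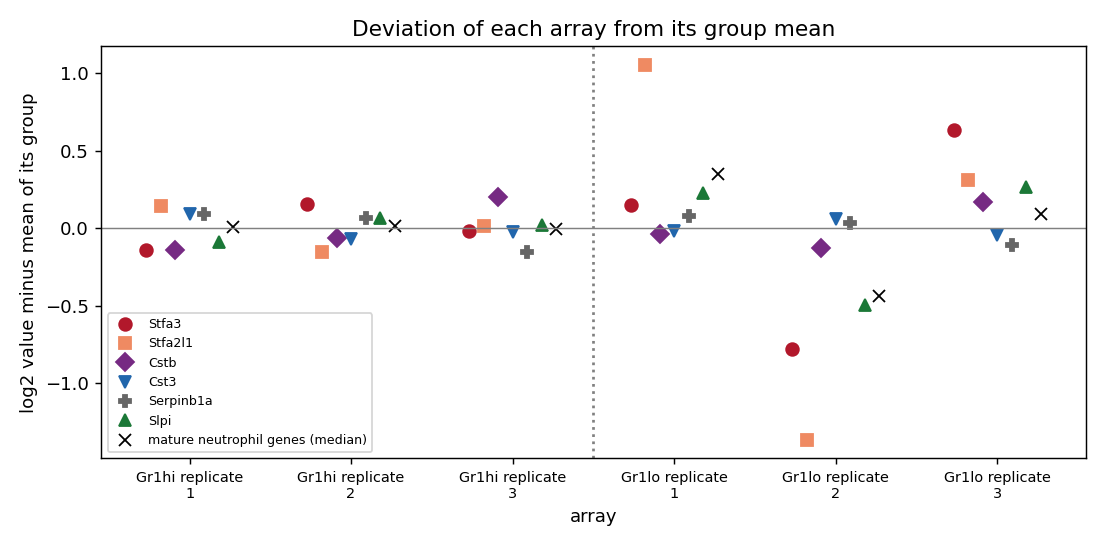
Log2 value minus the mean of its own group (y axis) for the 6 measured inhibitor genes and for the median of 17 mature neutrophil genes (black crosses), on each of the 6 arrays (x axis, Gr1hi left of the dotted line). Gr1lo replicate 2 lies lowest for Stfa2l1 (-1.36), Stfa3 (-0.78) and Slpi (-0.49), and the Gr1hi arrays lie within 0.20 of their mean.

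Genes with the most similar profiles were found by the root mean square distance over the 6 arrays, after each gene was centred on its own mean. For Slpi the closest was Mmp9, the gene of gelatinase B, at a distance of 0.05, followed by Arhgap25 and Shisa5. Mmp9 read 13.85, 13.99 and 13.93 in Gr1hi and 12.06, 11.43 and 12.26 in Gr1lo, so it shared the low Gr1lo replicate 2. The genes closest to Stfa3 were Dennd3, Arfip1 and Slfn1, at 0.10 to 0.16. Those closest to Stfa2l1 were Myadm, Sgms1 and Timp2, at 0.14 to 0.20, and Timp2 encodes an inhibitor of matrix metalloproteases. The distance between Stfa3 and Stfa2l1 themselves was 0.65, and 0.88% of the tested genes outside the list were closer to Stfa3 than Stfa2l1 was. Cstb was closest to Tmub2, Csnk1g2 and Araf. Since 6 arrays in 2 groups define these profiles, the distances mostly rank genes by the size of the group difference.

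Other protease inhibitors on the arrays mostly stayed low or differed little. Of 119 listed inhibitors that are not members, 81 had a probe set, 36 passed the filter, and of these 5 rose and 7 fell, with a median difference of 0.11, so that 12 of 36 were called where 56.4% of all tested genes were. This split depends on the scale: 30 were higher and 5 lower with centring on the kept genes, and 4 and 9 with centring on the hybridization controls. Among the 20 other cystatin superfamily genes listed, 12 had a probe set, 3 were tested and 1 fell. This was Cst7, which encodes cystatin F, an inhibitor of cathepsins in granules and lysosomes of immune cells. Cst7 read 4.63, 3.82 and 3.68 in Gr1hi, against 10.36, 11.05 and 10.03 in Gr1lo, and differed by -6.44 (SE 0.32, limma adjusted p = 3.45e-07). Within one superfamily, Cst7 therefore differed in the opposite direction to Stfa3, Stfa2l1, Cstb and Cst3, and Gr1lo replicate 2, the lowest array for the stefins, was the highest for Cst7.

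Of 26 other clade B serpins listed, 7 were tested, 0 rose and 1 fell. The 1 was Serpinb5, at 2.51 ± 0.11 in Gr1hi and 2.86 ± 0.20 in Gr1lo (SD, n = 3 each), near the absent-transcript level, and its call was lost without Gr1hi replicates 1 or 3, Gr1lo replicates 2 or 3, or both replicate 3 arrays, and its direction turned with centring on the kept genes (0.32). Serpinb6a, whose human relative SERPINB6 inhibits cathepsin G, averaged 10.11 ± 0.21 in Gr1hi and 9.99 ± 0.37 in Gr1lo (SD, n = 3 each) and did not pass the test (limma adjusted p = 0.605). It was named after its values were seen. Of 29 secreted serpins, 8 were tested and 0 were called in either direction. All of those 8 had means under 3.8 in both groups.

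Among relatives of Slpi, single genes changed by more than Slpi itself. Of 33 listed WAP, Kunitz and Kazal inhibitors, 12 were tested, of which 3 rose and 3 fell. Wfdc17, a WAP-domain gene of activated myeloid cells, read 12.15, 12.96 and 12.86 in Gr1hi, against 8.05, 4.86 and 7.01 in Gr1lo. It differed by 6.02 (SE 0.65, limma adjusted p = 3.86e-05), more than any measured member, and its Gr1lo replicate 2 was the lowest array as for Slpi. Without that array Wfdc17 differed by 5.13, and without Gr1lo replicate 1 by 6.72. Wfdc18 averaged 3.85 ± 0.39 in Gr1hi and 2.25 ± 0.27 in Gr1lo (SD, n = 3 each), the Gr1lo mean lying below the highest absent-transcript control. Wfdc21 averaged 14.11 ± 0.08 in Gr1hi and 13.90 ± 0.13 in Gr1lo (SD, n = 3 each), near the top of the arrays, and its call (limma adjusted p = 0.0352) was lost without Gr1hi replicates 2 or 3 or Gr1lo replicates 1 or 2. With centring on the hybridization controls Wfdc21 differed by -0.043. The inhibitor genes that fell were Tfpi (-3.47), Tfpi2 (-1.77) and Spint2 (-1.02). The fall of Tfpi was smaller on its other probe set (-1.68) and on the mean of its probe sets (-1.42). Tfpi encodes tissue factor pathway inhibitor, and Spint2 a Kunitz inhibitor of membrane serine proteases. Tfpi averaged 2.62 ± 0.58 in Gr1hi and Tfpi2 2.25 ± 0.20 (SD, n = 3), both below the highest absent-transcript control. Wfdc21 and Tfpi were named after their values were seen.

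The remaining list, of metalloprotease and broad inhibitors, was split. Of 11 listed, 6 were tested, of which 2 rose and 2 fell. Timp2 read 12.25, 12.33 and 12.10 in Gr1hi, against 9.02, 6.98 and 8.74 in Gr1lo, and differed by 3.98 (SE 0.43, limma adjusted p = 3.99e-05). Its size depended on the probe set, the others fitted giving 1.23, 3.12, 3.97 and 5.62, and it was 3.35 without Gr1lo replicate 2. Reck, which encodes a membrane-anchored inhibitor of metalloproteases, rose by 0.76. Pebp1, a phosphatidylethanolamine-binding protein gene, differed by -2.89 on the probe set used and by -3.76 on another. Lxn, which encodes the carboxypeptidase inhibitor latexin, fell by 0.71. The call of Lxn was lost without both replicate 3 arrays (limma adjusted p = 0.0519) and with centring on the kept genes (limma adjusted p = 0.884).

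**Figure D3:**
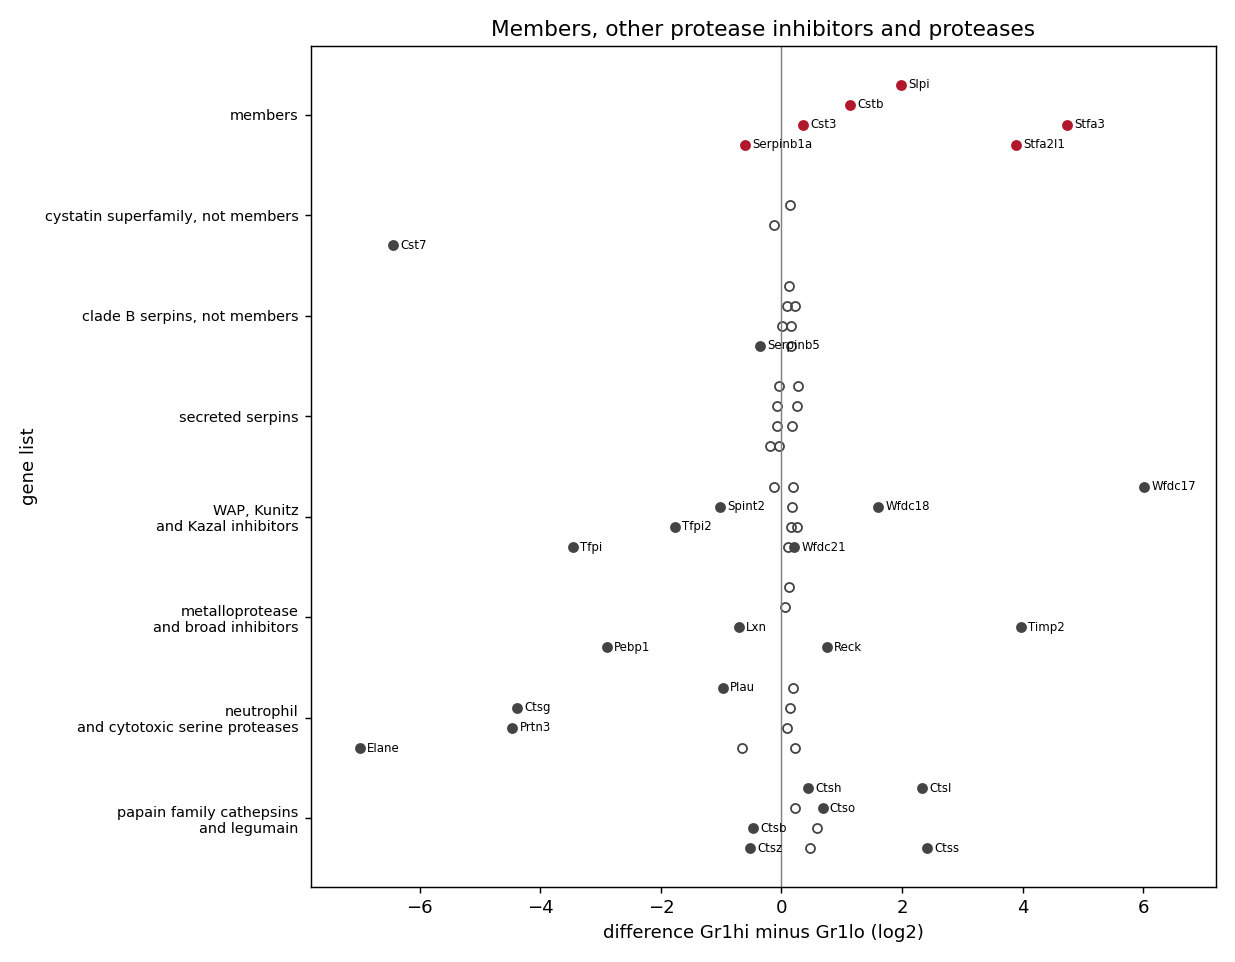
Difference Gr1hi minus Gr1lo on the log2 scale (x axis) for the measured members (red) and for the tested genes of the other inhibitor and protease lists (black), 1 row per list. Filled points passed the limma test at an adjusted p under 0.05 and are named; open points did not pass. The members run from Serpinb1a (-0.61) to Stfa3 (4.74), Wfdc17 lies at 6.02, and Elane, Prtn3 and Ctsg lie at -6.99 to -4.39.

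The serine proteases that Serpinb1a and Slpi are known to inhibit were far lower in Gr1hi. Of 18 listed serine proteases, 9 were tested, of which 4 fell and 0 rose, with a median of -0.66, and centring on the kept genes gave 4 higher and 3 lower. Elane, the elastase gene, read 5.26, 4.54 and 4.05 in Gr1hi, against 11.43, 12.02 and 11.38 in Gr1lo. It differed by -6.99 (SE 0.30, limma adjusted p = 1.98e-07), Prtn3, the proteinase 3 gene, by -4.46 and Ctsg, the cathepsin G gene, by -4.39. The fourth was Plau, the urokinase gene, at -0.98, a call lost without Gr1hi replicates 1 or 2 or Gr1lo replicate 3. It was also lost with centring on the kept genes (-0.30), with repeated quantile normalization (-0.79) and on another probe set (-0.16). The log2 ratio of Serpinb1a to Elane within an array was higher in Gr1hi by 6.39, and that of Slpi to Elane by 8.98. A constant added to a whole array cancels in such ratios, so their changes do not rest on the centring. The transcript of Serpinb1a thus fell by less than that of Elane. Both ratios were higher on every Gr1hi array than on every Gr1lo array. An exact permutation test, two-sided, gave p = 0.1 for each. It was run on 4 ratios, the others being Cst3 to Ctss and Cstb to Ctsb, with the same p. This is the smallest p that 3 against 3 arrays can give, so that a threshold of 0.05 could not be reached. The separation of both ratios to Elane follows from the values of the single genes given above, so the test adds no support.

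The cysteine cathepsins that stefins and cystatin C are known to inhibit did not move as a block. Of 11 listed papain family cathepsins and legumain, 9 were tested, of which 4 rose and 2 fell, with a median of 0.47. With centring on the kept genes 7 were higher and 0 lower, and with centring on the hybridization controls 2 were higher and 2 lower. Ctss, the cathepsin S gene, read 10.01, 9.99 and 10.72 in Gr1hi, against 7.80, 7.33 and 8.35 in Gr1lo, and rose by 2.42 (SE 0.27, limma adjusted p = 5.14e-05). Ctsl, the cathepsin L gene, rose by 2.33 (1.45 on the mean of its probe sets), Ctso by 0.68 and Ctsh by 0.43. The calls of Ctso and Ctsh were lost with arrays centred on the hybridization controls, and that of Ctso also without both replicate 3 arrays (limma adjusted p = 0.0659). Ctsb and Ctsz fell by 0.46 and 0.51 on the probe set used, calls lost with centring on the kept genes. Another probe set of Ctsb rose by 0.58, and its remaining fitted probe sets gave -0.36, -0.49 and -0.08 without a call. The mean of the Ctsb probe sets gave -0.16 and did not pass the test (limma adjusted p = 0.331). The call of Ctsz was also lost without Gr1hi replicates 1 or 2. Ctso and Ctsz were named after their values were seen. The log2 ratio of Cst3 to Ctss differed by -2.05 and was lower on every Gr1hi array than on every Gr1lo array. This separation follows from the values of the 2 genes given above. The exact permutation test (two-sided, p = 0.1, the smallest possible here) adds no support. The log2 ratio of Cstb to Ctsb was higher in Gr1hi by 1.61, with the Ctsb probe set that fell. Ratios to the other Ctsb probe sets, of which 1 rose by 0.58, were not computed. Of the 8 tested monocyte and macrophage markers described with Cst3, 3 rose and 1 fell, and their part in Ctss and Ctsl was not tested.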

How the data were processed

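Per the labels' protocols, RNA of sorted marrow cells was labelled with biotin for Affymetrix 3' expression arrays. The authors deposited log2 values per probe set, from GCRMA per the submitters' processing notes, which name no version or settings. The table held 45101 probe sets with values from 0.87 to 15.01, array medians of 2.86 to 2.94, and no detection calls. The absent-transcript level is the highest value of 3 control probe sets.

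Of the probe sets, 64 were controls, 34945 had 1 gene symbol, 932 had several and 9160 had none listed; only those with 1 symbol named genes. For each of 18193 genes, the probe set with the largest average over all 6 arrays was used. Genes above the 40th percentile on at least 3 arrays were kept (12739). The difference Gr1hi minus Gr1lo was tested in R 4.3.3 with limma 3.58.1, using lmFit and a trended eBayes (4 residual degrees of freedom), two-sided; p-values were adjusted by Benjamini and Hochberg over the 12739 genes, and those under 0.05 were called. The fit was tested on simulated data. The number of arrays limits the precision. Members and lists were chosen with earlier results of these data known, so lists are described by counts and medians with no list test. From each list, up to 4 tested genes with the smallest p were named, and other names are marked where given. Cell type markers were named after their values were seen. Similar genes are the 3 with the smallest distance. Promoters and gene names came from RefSeq (GRCm38.p6); 6 of the 8 listed genes had a promoter entry. Pairwise identity used global alignment with Biopython 1.88. Alternatives were other filters, probe set rules, eBayes settings, quantile normalization, 2 centrings, a replicate block, and arrays left out.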

Additional observations from a re-analysis of the deposited data

How the results depend on the processing

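The number of measured members called higher was 5 under each alternative except with arrays centred on the hybridization controls, where it was 4 (without Cst3). The number called lower was 1, but 0 when the kept-gene median was subtracted from each array, where Serpinb1a differed by 0.070. Stfa3, Stfa2l1, Slpi and Cstb kept their direction and call under every alternative run, with differences of 4.35 to 5.41, 3.21 to 4.57, 1.73 to 2.66 and 0.88 to 2.12 (both Cstb probe sets included). Leaving out 1 array in turn gave 4.35 to 5.05, 3.21 to 4.42, 1.74 to 2.12 and 1.04 to 1.22 for the same genes, 0.32 to 0.40 for Cst3 and -0.66 to -0.53 for Serpinb1a. The centrings shift every difference by 0.68 (kept genes) or -0.26 (hybridization controls). Of all tested genes, 3128 were called higher and 4051 lower; these became 8354 and 2313 with the first centring and 1861 and 4848 with the second. Each probe set on its own gave 12755 calls of 22715 probe sets, against 7179 of 12739 genes, with more features tested. Centring on the kept genes reversed Serpinb5 (0.32), Ctsb (0.21) and Ctsz (0.16), and gave 30 of the other inhibitors higher, against 5. Centring on the hybridization controls reversed Wfdc21 (-0.043), Serpinb6a (-0.14) and Cast (-0.14). Ctsb was reversed on another probe set (0.58), and Serpinb6a without Gr1lo replicate 2 (-0.075, in a range of -0.075 to 0.29 over single arrays left out). The replicate numbers were not shown to pair the arrays: deviations from the group means correlated at 0.17, 0.00 and 0.15 for numbers 1, 2 and 3. With the replicate block 7059 genes were called and all 6 members kept their calls. The second probe sets were also fitted with both centrings, chosen after the data were seen, with the kept genes and the hybridization controls giving -0.28 and -1.21 for Serpinb1a and 2.12 and 1.19 for Cstb.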
